A study of Mus musculus with 9 samples.

Results

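The aorta of adult male mice that carried a loxP-flanked (floxed) allele of AT1ar, the gene Agtr1a for the angiotensin II type 1a receptor, and no Cre transgene is described here by the genes it expressed. Genes were taken as expressed when the authors' value for that group was 1 FPKM or more (fragments per kilobase of transcript, scaled to all mapped fragments) and their status was not HIDATA, which marks genes with too many fragments to estimate. They numbered 13683 of the 37668 genes listed (36.3%). The study collected poly-A RNA sequencing of aorta in 3 groups of 3 libraries, at the age of 90 days, on the mixed strain background 129T2SvEmsJ:C57Blk/6J. All 3 groups shared the floxed allele, and the others, made to remove the receptor from smooth muscle or endothelium with Sm22-Cre or Cdh5-Cre, are not used here. The floxed group stands as wild type in the series' design text, and a title that names Marfan syndrome goes with labels that give no fibrillin allele for it. The labels do not say which stretch of aorta was taken, or whether surrounding fat was removed. Each level below is 1 value for the 3 libraries together, so the spread between mice and the depth are unknown, and no difference between genes could be set against replicate error.

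The wall of the aorta has an inner endothelium, a media of smooth muscle cells layered between sheets of elastin, and an adventitia of fibroblasts, collagen, small vessels and nerves. The smooth muscle cell both contracts and, through life, holds the matrix that gives the vessel its recoil, so contractile and matrix genes are the known signature of this tissue. The label of aorta was checked against such genes. The smooth muscle myosin heavy chain gene Myh11 stood at 1341 FPKM (status FAIL), the elastin gene Eln at 1134 and the gene Mgp for matrix Gla protein, an inhibitor of calcification, at 4253. The endothelial adhesion gene Pecam1 stood at 136 FPKM (status FAIL) and the fibroblast gene Dcn, for decorin, at 989 (status FAIL). The T cell, neuronal and epithelial genes Cd3e (0.153), Th (0.0287) and Epcam (0.0415) lay under 1 FPKM. Of the full lists, 0 of 10 T cell, 3 of 12 neuronal and 7 of 13 mesothelial and epithelial markers reached 1 FPKM. In bulk tissue, fewer cells of a type and less RNA per cell cannot be told apart. FPKM is scaled to transcript length, so levels are compared between genes on that scale throughout.

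Expression was concentrated in few genes. The 13683 genes held 99.6% of the FPKM sum, with a median of 10.7 FPKM and quartiles of 4.28 and 26.2. Of all genes listed, 7135 (18.9%) reached 10 FPKM and 763 (2.03%) reached 100. The 40 genes at 1000 FPKM or more made up 0.292% of the expressed genes and held 20.2% of the sum, whereas the 6548 genes between 1 and 10 FPKM made up 47.9% and held 6.05%. The 10 most abundant genes held 9.71%, the top 100 held 28.2%, and 518 genes sufficed for 50% of it. Protein-coding genes were 12026 of the expressed genes (87.9%) and 94% of the sum. Of the protein-coding genes listed, 59.6% reached 1 FPKM, 33.2% reached 10 and 3.62% reached 100. Just inside the minimum stood Spag4 (1.0013 FPKM), Msi1 (1.0010) and a gene with no symbol, ENSMUSG00000071292 (1.0003). Mfsd2b (0.9990), Vsig10l (0.9987) and Pmel (0.9982) stood just outside.

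**Figure D1:**
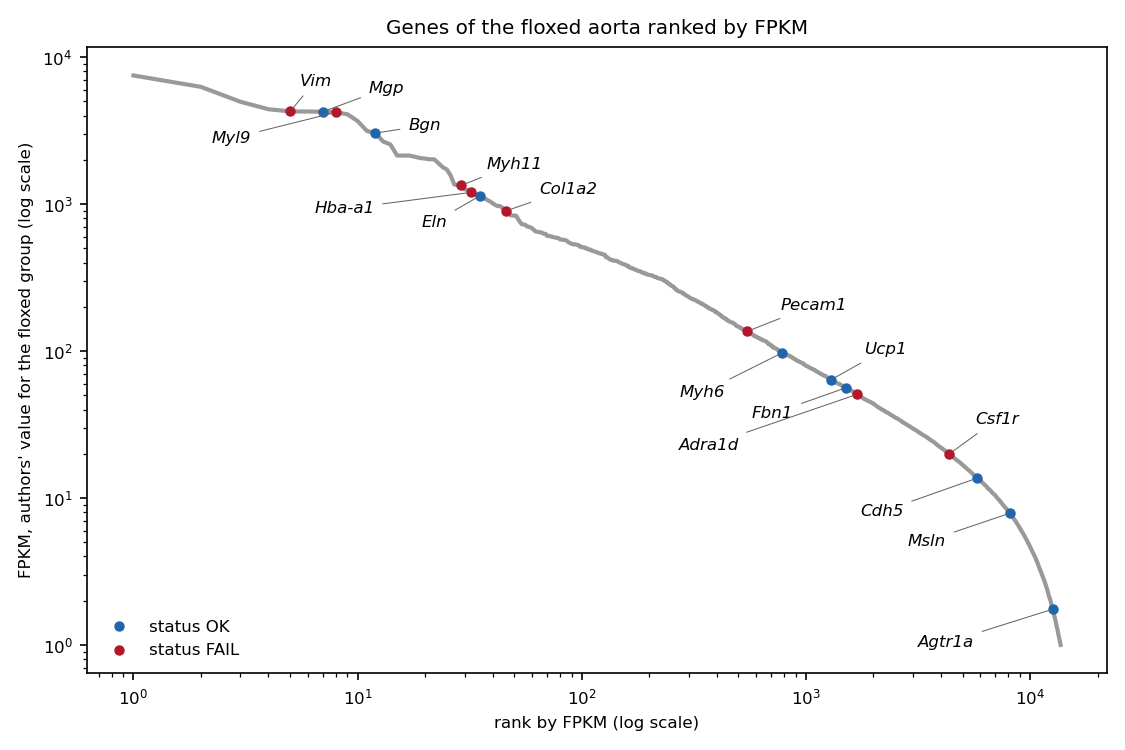
Rank of each gene by FPKM (x axis, log scale) against its FPKM in the floxed aorta (y axis, log scale, 1 group value per gene), with named genes in blue for status OK and red for FAIL. The intermediate filament gene Vim, the matrix genes Mgp and Bgn and the contractile gene Myl9 sit between 3043 and 4274 FPKM. Pecam1 sits at 136, Cdh5 at 13.7 and Agtr1a at 1.75.

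Status qualified part of these levels. It belongs to the authors' comparison of this group with another, where FAIL reports a numerical failure in that estimate, and it was FAIL for 3344 expressed genes (24.4%), which held 33.9% of the sum. Their median was 16.8 FPKM, beside 9.06 for the 10290 genes with OK. Of the top 100 genes, 39 had status FAIL. Status and shared loci are named in the text for some genes only, so a gene named without them may have either. HIDATA removed 7 genes listed at 0, among them Acta2, for smooth muscle actin, and Flna, for the actin cross-linker filamin A. The other 5 were mitochondrially encoded, namely the transfer RNA gene mt-Ts1 and the respiratory chain genes mt-Atp8, mt-Atp6, mt-Co3 and mt-Co1. No level can be read for any of them. A listed locus was shared with another gene for 5846 expressed genes (42.7%), among them 40 of the top 100, so fragments may have been divided among neighbours there.

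The most abundant transcripts came from mitochondria, the contractile apparatus and the matrix. Subunits of the respiratory chain encoded in mitochondria led, with mt-Co2 at 7506 FPKM, mt-Cytb at 6278, mt-Nd4 at 4973 and mt-Nd1 at 4424. The first gene of known function on a nuclear chromosome was Vim (mm9 chr2:13495554-13504453), for the intermediate filament protein vimentin, at 4274 FPKM with status FAIL. Mgp (mm9 chr6:136820957-136824326) followed at 4253, Myl9 (mm9 chr2:156601156-156607394), for the regulatory light chain of smooth muscle myosin, at 4213 and Tagln (mm9 chr9:45646663-45744141), for the actin-binding protein SM22, at 4089. Both Myl9 and Tagln had status FAIL, and Tagln overlaps other genes at its listed locus. All 4 are protein-coding. The proteoglycan gene Bgn (mm9 chrX:70728941-70741272), for biglycan, stood at 3043 FPKM. The actin-monomer binding gene Tmsb4x (2667), the translation gene Eef1a1 (3676), the iron-storage gene Fth1 (2101) and the protease inhibitor gene Cst3 (2015) were widely expressed genes in the same range.

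By function, ribosomal proteins and translation factors held 8.49% of the FPKM sum (104 genes) and mitochondrially encoded genes 7.1% (11 genes). The contractile apparatus, actin cytoskeleton and intermediate filaments held 6.33% (64 genes), and the extracellular matrix 5.43% (104 genes). Intermediate filament genes, led by Vim, held 0.932% of the sum, more than the gap between these shares. Nuclear subunits of the respiratory chain held 1.91% (82 genes) and the 4 globin genes 0.811%. The 7 genes with status HIDATA, among them Acta2 and 5 mitochondrially encoded genes, are not in these sums, so the order of the shares holds only without them. In all, 1320 expressed genes belonged to at least 1 of 68 lists of cell types and functions, and they held 41% of the sum. Of the 100 most abundant genes, 74 were in a list, 18 of them in that of ribosomal proteins. A list median of 100 FPKM or more was reached by 15 lists.

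**Figure D2:**
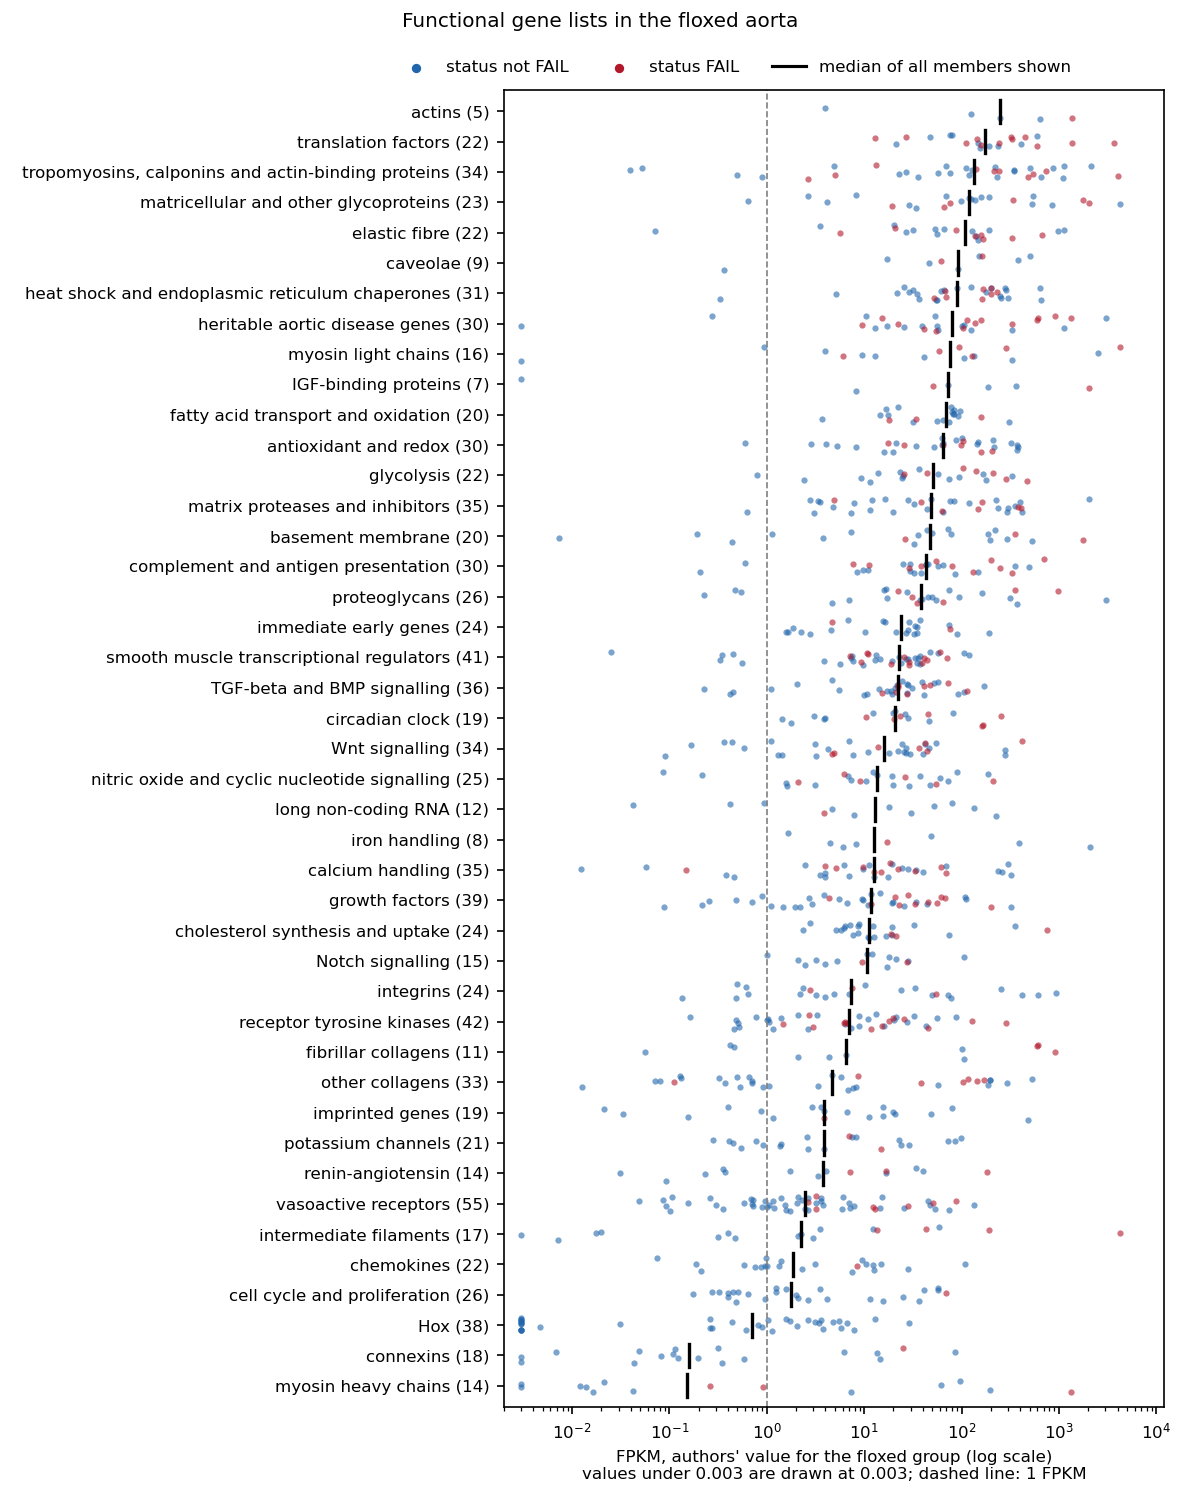
FPKM in the floxed aorta (x axis, log scale) of each gene in 43 functional lists (rows, with the number of genes shown in brackets), with points in red for status FAIL and blue otherwise. The black bar is the median over all genes of a list, genes under 1 FPKM included. Actins have the highest median, 247 FPKM, and connexins and myosin heavy chains the lowest, each with most genes under the dashed line at 1 FPKM.

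The contractile apparatus was present at levels far above the median gene, and within each protein family a few isoforms carried it. Of the 20 smooth muscle markers, 19 reached 10 FPKM and 15 reached 100, with a median of 330.1 FPKM, and the remaining member was Acta2. Among 14 myosin heavy chain genes, Myh11 (mm9 chr16:14194620-14291501) stood at 1341 FPKM, the non-muscle genes Myh10 and Myh9 at 194 and 60.9, and the cardiac genes Myh6 and Myh7 at 97.3 and 7.25. The other 9 lay under 1 FPKM, led by Myh14 at 0.908. Myh11 was thus 6.93 times Myh10 and 22 times Myh9. Among light chains, Myl9 (4213 FPKM) and the essential chain gene Myl6 (2548) stood above the non-muscle genes Myl12a (288) and Myl12b (93.2). Mylk, for the kinase that starts contraction, stood at 330.1. Tpm2 (2139.6 FPKM) and Tpm1 (1115), for the tropomyosins that wind along actin, exceeded Tpm4 (111) and Tpm3 (68.5). Of the calponins, which damp myosin activity on actin, Cnn1 was at 507 FPKM, Cnn3 at 229 and Cnn2 at 127.

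Actin isoforms could be compared without Acta2. The cytoplasmic gene Actb stood at 1347 FPKM (status FAIL), Actg1 at 643 (33.5% of its 75-base windows occur in another gene's transcript), the enteric smooth muscle gene Actg2 at 247, the cardiac gene Actc1 at 125 and the skeletal gene Acta1 at 3.92. Proteins that bind or cross-link actin were also high: Csrp1 (1091) and Csrp2 (876), LIM proteins of smooth muscle, Cald1 (730.1), for caldesmon, Smtn (650.2), for smoothelin, and Actn4 (545) and Actn1 (476), for alpha-actinins. Fblim1 (1147 FPKM) and Fhl1 (1013), for LIM proteins linked to adhesions and muscle, and Dstn (1565) and Gsn (1720.0), for proteins that sever actin filaments, were among the 40 most abundant genes. Of intermediate filament genes, Vim was 73.6 times the muscle gene Des (58.1 FPKM). Lmna, for nuclear lamins A and C, stood at 189.8, and the neurofilament gene Nefl at 0.00725.

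Promoters of these genes were searched for the CArG box, the sequence bound by serum response factor, which drives actin and smooth muscle genes, and for the TATA box. Sequences are RefSeq windows on GRCm38.p6, from 250 bases before to 50 after each start site, and their coordinates are not those of mm9 used for loci elsewhere. The CArG box has 10 letters, with 6 A or T between a pair of C and a pair of G, and reads as the same pattern on both strands. The TATA box was searched as TATAAA on both strands, and the motifs can overlap because the middle of a CArG box may itself read so. Of the 32851 windows, 535 (1.63%) held a CArG box and 4473 (13.6%) a TATA box. Promoters are shown for Vim, the most abundant nuclear gene with a TATA box, and for the abundant contractile genes Myl9, Myl6 and Actg1, which hold a CArG box. Each runs 5′ to 3′ on the strand of the gene and ends at the base before its start site, and capitals mark the TATA box in Vim and the CArG box in the others.
Vim (chr2:13574061-13574310, plus strand): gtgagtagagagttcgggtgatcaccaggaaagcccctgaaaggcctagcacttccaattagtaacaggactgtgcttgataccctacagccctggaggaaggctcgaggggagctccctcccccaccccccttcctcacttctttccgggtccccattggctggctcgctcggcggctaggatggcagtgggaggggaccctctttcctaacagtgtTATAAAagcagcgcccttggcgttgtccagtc
Myl9 (chr2:156775214-156775463, plus strand): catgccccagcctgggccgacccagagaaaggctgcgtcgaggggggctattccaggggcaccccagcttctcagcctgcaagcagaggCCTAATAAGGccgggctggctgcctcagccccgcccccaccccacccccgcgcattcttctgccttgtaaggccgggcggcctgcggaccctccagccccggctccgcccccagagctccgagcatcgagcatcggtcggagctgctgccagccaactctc
Myl6 (chr10:128493010-128493259, minus strand): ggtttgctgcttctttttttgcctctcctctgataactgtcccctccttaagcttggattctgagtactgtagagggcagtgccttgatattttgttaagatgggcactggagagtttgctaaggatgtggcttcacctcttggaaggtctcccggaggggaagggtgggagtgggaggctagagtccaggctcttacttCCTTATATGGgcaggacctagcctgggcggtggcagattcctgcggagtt
Actg1 (chr11:120348496-120348745, minus strand): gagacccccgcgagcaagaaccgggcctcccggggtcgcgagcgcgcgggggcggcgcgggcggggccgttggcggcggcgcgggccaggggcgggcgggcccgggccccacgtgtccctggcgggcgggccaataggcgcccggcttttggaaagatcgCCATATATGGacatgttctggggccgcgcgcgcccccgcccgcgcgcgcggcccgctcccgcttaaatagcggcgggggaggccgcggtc
The TATA box of Vim begins at -32 from the start site. The CArG box begins at -161 in Myl9, -50 in Myl6 and -90 in Actg1.

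Further CArG boxes lay in promoters of cardiac and adhesion genes, shown with 20 bases on either side of the box to compare its letters. Actc1, Myl3 and Myl7 encode an actin and myosin light chains of heart muscle. Cnn2 encodes a calponin and Vcl encodes vinculin, which ties actin to adhesions.
Actc1 (chr2:114052893-114052942, minus strand): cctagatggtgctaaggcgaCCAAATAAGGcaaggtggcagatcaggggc
Myl3 (chr9:110763573-110763622, plus strand): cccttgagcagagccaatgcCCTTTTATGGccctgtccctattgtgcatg
Myl7 (chr11:5898814-5898863, minus strand): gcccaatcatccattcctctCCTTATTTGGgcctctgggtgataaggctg
Cnn2 (chr10:79988524-79988573, plus strand): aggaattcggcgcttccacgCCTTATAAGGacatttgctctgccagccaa
Vcl (chr14:20929151-20929200, plus strand): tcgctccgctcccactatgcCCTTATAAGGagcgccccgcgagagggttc
Cnn2 and Vcl hold the same box letters, at -56 and -227, and the others differ in the letters between the outer pairs. In the lists of actins, myosins, actin-binding proteins and intermediate filaments, 11 of 73 genes with a window held a CArG box (15.1%). The share was 155 of 9676 (1.6%) in expressed genes and 488 of 27025 (1.81%) in all genes. Gene lists here keep members under 1 FPKM, and Myh4 and Myh13 are among the 11. A gene with several windows counts when any of them holds the box. The 20 smooth muscle markers gave 1 of 16 (6.25%), which was Myl9, and the 100 most abundant genes gave 4 of 63 (6.35%). The heart muscle markers gave 3 of 17 (17.6%), the immediate early genes 2 of 19 (10.5%), matrix genes 2 of 89 (2.25%) and ribosomal protein genes 1 of 64 (1.56%). A TATA box was in 16 of 89 matrix genes (18%), among them Postn at -26, and in 17 of the 73 cytoskeletal genes (23.3%). It was in 11 of 63 of the most abundant genes (17.5%), in 839 of 9676 expressed genes (8.67%) and in 4234 of all 27025 genes (15.7%). A match describes letters in these windows and does not show binding.

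Elastic fibre genes were expressed nearly in full. Elastin, laid on a scaffold of fibrillin microfibrils and cross-linked by lysyl oxidases, gives the wall its recoil. Of 22 genes of the list, 21 reached 1 FPKM and 11 reached 100, with a median of 128 FPKM among the 21. Eln (mm9 chr5:135179651-135223111, protein-coding) stood at 1134 FPKM, 20.1 times Fbn1 (mm9 chr2:125126330-125333729) at 56.4. Fbn1 encodes fibrillin-1, the Marfan syndrome protein. The second fibrillin gene, Fbn2, which is known from development, stood at 0.0715 FPKM. Microfibril-associated genes were high, with Mfap4 at 669.5 FPKM and Mfap5 at 329, both with status FAIL. Of the proteins that hold latent TGF-beta on microfibrils, Ltbp4 (971 FPKM) exceeded Ltbp1 (167), Ltbp3 (128) and Ltbp2 (65.3). The fibulin genes Efemp2 (159), Fbln5 (149), Fbln1 (142) and Fbln2 (87.5), whose products bridge elastin and microfibrils, stood above their relative Efemp1 (20.3). Among cross-linking enzymes, Loxl1 (193 FPKM) was 3.59 times Lox (53.7), and Loxl4 stood at 3.52.

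Collagens, proteoglycans and glycoproteins filled in the rest of the matrix. Of 11 fibrillar collagen genes, 8 reached 1 FPKM, with Col1a2 (mm9 chr6:4454814-4491543) at 901 FPKM, Col3a1 at 607 and Col1a1 at 594, all with status FAIL. The cartilage gene Col2a1 stood at 0.414. Partner chains of 1 trimer were close to each other in several cases, with Col5a1 at 105 and Col5a2 at 102, Col4a1 at 197 and Col4a2 at 186, and Col6a2 at 196 and Col6a1 at 172. Col4a5 (104) was 1.84 times its neighbour Col4a6 (56.7). For type I collagen the ratio Col1a2 to Col1a1 was 1.52. Col18a1 (529 FPKM) and Col15a1 (295), of basement membranes, led the 33 other collagen genes. Of these 33, 19 reached 1 FPKM, beside 59.6% of all protein-coding genes listed. The laminin chain genes Lamb2 (222), Lamc1 (77.7) and Lama5 (72.5) exceeded Lama1 (0.00736). The small proteoglycan genes Bgn (3043) and Dcn (989) were followed by Ogn (373), Hspg2 (353), for perlecan, Prelp (313) and Lum (162). Igfbp7 (2018), Sparc (1780.4), Postn (840.0), Ccn3 (538) and Ccn2 (532) followed Mgp among the secreted glycoproteins, while Spp1, for osteopontin, stood at 8.19 and Vtn, for vitronectin, at 0.645. Igfbp7 and Sparc had status FAIL, and Igfbp7 and Ccn2 had a shared locus.

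Genes that turn over or sense the matrix were also expressed. Of the genes for inhibitors of metalloproteases, Timp2 (416 FPKM) and Timp3 (296) stood above the metalloprotease genes Mmp23 (119), Mmp2 (75.6) and Mmp14 (32.4). Timp1 (38) stood below Mmp2, and Timp4 (7.29) below all 3. Cst3 (2015), Serpine2 (395) and Serping1 (350.2), for inhibitors of other proteases, were also high. Mmp9 stood at 3.37 FPKM. Lysosomal cathepsin genes were also high, with Ctsd at 411, Ctsl at 236 and Ctsb at 225. Of 24 integrin genes, 19 reached 1 FPKM, led by Itga8 (929), a partner of Itgb1 (608), and by Itgb5 (415) and Itga9 (252). Itga8 was 12 times Itga5 (77.5), for the fibronectin receptor chain. Caveolae, the membrane pits of smooth muscle and endothelium, were represented by Cav1 (506) and Cavin1 (380.0), and the muscle gene Cavin4 stood at 0.365. Of 18 connexin genes, 5 reached 1 FPKM: Gja1 (85), Gjc1 (25.2), Gja5 (14.6), Gja4 (13.4) and Gja6 (6.27).

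Genes of heritable aortic disease fell within this picture. Of 32 such genes, 28 reached 1 FPKM and 15 reached 100, with a median of 103 FPKM among the 28, and of 57 with status OK alone. They were led by Bgn, Myh11, Eln, Col1a2, Col3a1, Col1a1, Mylk and Mfap5. The TGF-beta receptor genes Tgfbr2 (41.3) and Tgfbr1 (39.5), the ligand genes Tgfb3 (57.7) and Tgfb2 (22.1) and the mediator Smad3 (17) stood below all 8 of these. Acta2 and Flna, with no estimate, belong to the same list, as do Foxe3, listed at 0, and Hcn4 at 0.272 FPKM.

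Among cell type markers, those of smooth muscle and fibroblasts were highest apart from the globins. The 20 fibroblast markers all reached 1 FPKM, 12 reached 100, and the median was 144. Gsn (1720.0 FPKM), Dcn (989), Col1a2 (901), Col1a1 (594), Serpinf1 (464) and Mfap5 (329) led, of which smooth muscle is also known to express several. The more restricted Pdgfra (25.7), a receptor of mesenchymal cells, Pi16 (207) and Dpp4 (2.15) covered a wide range. Of 22 endothelial markers, 21 reached 1 FPKM and 16 reached 10, with a median of 16.9. Fabp4 (310.0), which adipocytes also express, Pecam1 (136), Eng (73.3) and Vwf (62.2), for von Willebrand factor, stood highest. Cdh5 (mm9 chr8:106625525-106668402, protein-coding), for the adhesion protein of endothelial junctions, stood at 13.7, so Pecam1 was 9.98 times Cdh5. Kdr (3.29), for the main receptor of VEGF, and Robo4 (0.886) were lowest. Pericyte markers, which mural cells share with smooth muscle, had a median of 84.1 FPKM over 7 of 8 genes, led by Rgs5 (170.0), Pdgfrb (87.4), Abcc9 (85.6) and Cspg4 (84.1). The mean of log2(FPKM + 1), turned back to FPKM, was 43. Higd1b stood at 0.342.

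**Figure D3:**
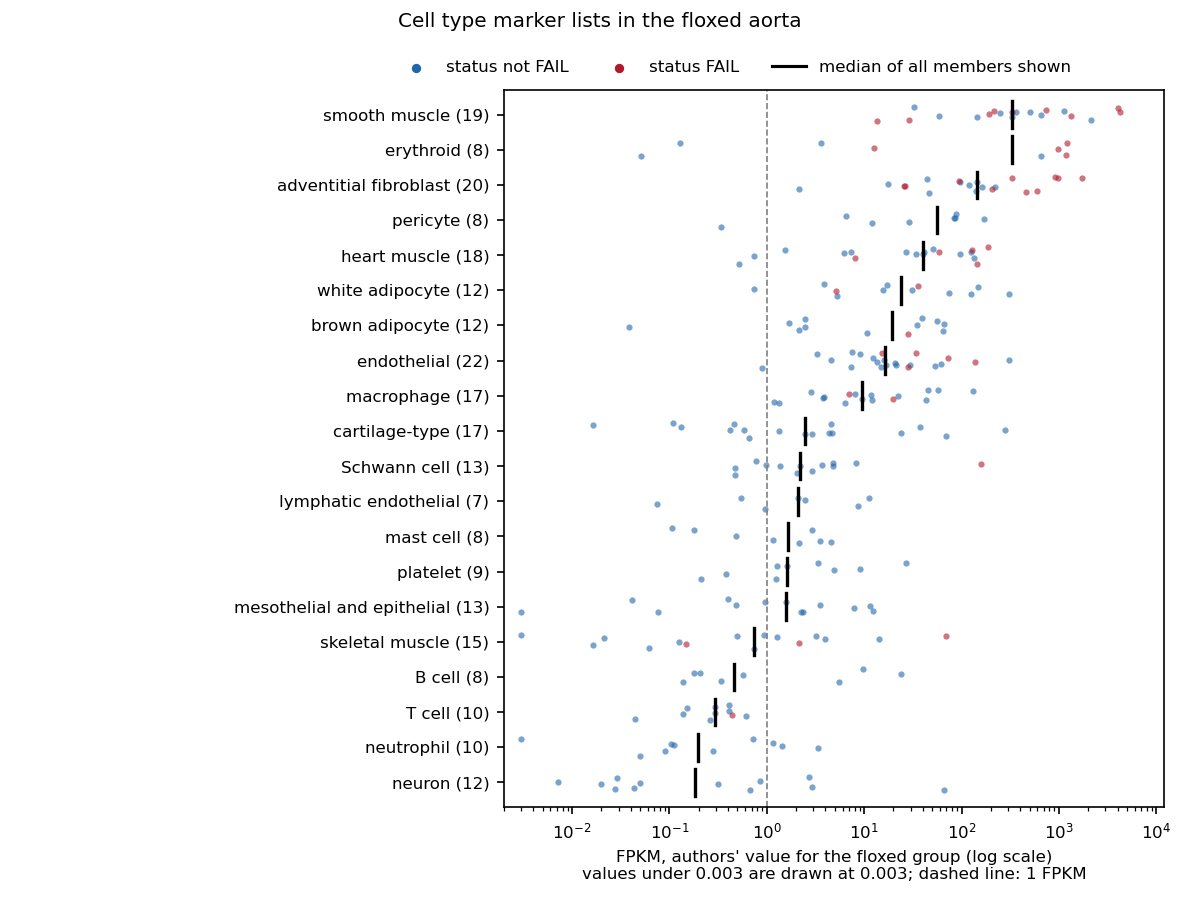
FPKM in the floxed aorta (x axis, log scale) of each marker in 20 cell type lists (rows, with the number of genes shown in brackets), with points in red for status FAIL and blue otherwise. The black bar is the median over all markers of a list, those under 1 FPKM included. Smooth muscle markers centre on 330.1 FPKM and endothelial markers on 16.5, and all 10 T cell markers lie under the dashed line at 1 FPKM.

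Markers of fat, heart muscle and cartilage-type tissue were measurable, and the cells they came from were not tested. The brown fat gene Ucp1, which uncouples mitochondria to make heat, stood at 63.8 FPKM, with Cox8b at 66.3 and Cidea at 39.5, while Zic1, known from the interscapular depot, stood at 0.0384. The white fat genes Cfd (147), Car3 (125), Adipoq (31) and Plin1 (17.1) were joined by Lep, for leptin, at 0.732. Of 18 heart muscle markers, 16 reached 1 FPKM, with a median of 45.9. Tnnt2 (189), Tnni3 (145), Myl7 (135), Myl4 (129), Actc1 (125) and Myh6 (97.3) led. The atrial genes Nppa (50.8) and Sln (34.2) stood beside Nppb at 0.731. The ventricular light chain gene Myl2, at rank 1447, stood above Des (rank 1455, 58.1 FPKM) and so above Nppa and Sln. The fast skeletal muscle genes Myh4 (0.00268), Pvalb (0.0619) and Actn3 (0.499) lay under 1 FPKM, although Casq1 stood at 69.9 with status FAIL and a shared locus. Of 13 mesothelial and epithelial genes, 7 reached 1 FPKM and 2 reached 10, with Upk3b at 11.5, Msln at 7.88 and Wt1 at 0.956. Of 17 cartilage-type genes, 10 reached 1 FPKM. Cytl1 (277), Comp (69.2), Chad (37) and Clec3a (24) were high, the cartilage regulator Sox9 (4.52) and the proteoglycan gene Acan (4.65) lower, and Matn1 (0.0165) under 1 FPKM.

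Blood and immune markers ranged from the globins to nearly nothing. The globin genes Hba-a1 (1201 FPKM), Hbb-bs (1188), Hba-a2 (972) and Hbb-bt (647) stood far above the red cell membrane gene Slc4a1 (0.127). Between 51.5% and 84.6% of the 75-base windows of the globin transcripts also occur in another gene's transcript, and their status was FAIL for all but Hbb-bt, so the split among them is uncertain. All 17 macrophage markers reached 1 FPKM, with a median of 9.54, led by the lysozyme gene Lyz2 (130.4) and the complement genes C1qa (57.6), C1qc (45.3) and C1qb (43.1). Adgre1, for the macrophage antigen F4/80, stood at 6.39. None of 10 T cell markers reached 1 FPKM, with Cd3g highest at 0.607. Of the B cell markers, Ebf1 (23.7), which fat and mesenchymal cells also express, Ighm (9.62) and Igkc (5.48) passed, and Ms4a1 (0.137) did not. The platelet gene Pf4 stood at 26.9 and Ppbp at 9.12, the mast cell genes Mcpt4 at 4.61 and Cma1 at 2.92, and the neutrophil gene S100a8 at 1.15 with Ly6g listed at 0.

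Nerve-associated genes were mostly under 10 FPKM. Of 13 Schwann cell markers, 9 reached 1 FPKM and 1 reached 10, with a median of 3.7 among the 9. Of all protein-coding genes listed, 59.6% reached 1 FPKM and 33.2% reached 10. The Schwann cell gene Pmp22 stood at 159 FPKM (status FAIL), and it is known from many cell types. The myelin gene Mbp stood at 3.7, and the regulator Sox10 (0.991) lay just under the minimum. Of 12 neuronal genes, Uchl1 (65.9), Stmn2 (2.89) and Npy (2.74) reached 1 FPKM. The genes of noradrenaline synthesis, Th (0.0287) and Dbh (0.043), did not. The cell bodies of sympathetic neurons lie outside the vessel, and whether this bears on these levels was not tested. Lymphatic genes were represented by Lyve1 (11.3), which macrophages also carry, and Pdpn (8.68), with the lymphatic regulator Prox1 at 0.543.

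Receptors for vasoactive signals differed widely in level. Agtr1a (mm9 chr13:30428310-30474736, protein-coding), whose allele is floxed in these mice, stood at 1.75 FPKM, at rank 12618 of the expressed genes. Its paralogue Agtr1b (0.353) and the other angiotensin II receptor gene Agtr2 (0.0921) lay under 1 FPKM, as did Agt, for the precursor angiotensinogen. Ace, for angiotensin-converting enzyme, stood at 184 with status FAIL and a shared locus. Of 55 vasoactive receptor genes, 38 reached 1 FPKM. The natriuretic peptide receptor genes Npr1 (133) and Npr2 (74.8), the calcitonin receptor partners Ramp2 (87.9) and Ramp1 (47.4) and their receptor Calcrl (28.5) stood high. The alpha-adrenergic gene Adra1d (50.7) was 28.9 times Agtr1a, and its relatives Adra1b (3.59) and Adra1a (0.715) were far lower. Endothelin receptor genes Ednra (5.98) and Ednrb (2.62) and the beta-adrenergic genes Adrb3 (3.62) and Adrb1 (1.4) stood lower than these high genes.

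Among 247 symbols matched to families of G protein-coupled receptors, 92 reached 1 FPKM and 28 reached 10. Lgr6 (94.2), for a receptor of R-spondins, and the adhesion receptor genes Adgre5 (87.8) and Adgrl1 (58.5) were highest. They were followed by the Wnt receptor genes Fzd1 (55.3), Fzd2 (46.7), Fzd7 (42) and Fzd4 (27), the neuropeptide Y receptor gene Npy1r (52.9) and the thrombin receptor gene F2r (45). Adgrl2 (38.2), the GABA receptor gene Gabbr1 (32.8), the chemokine-scavenging Ackr3 (27.9) and Cmklr1 (27.3), for a receptor of chemerin, completed the 15 highest with Adra1d and Calcrl. Agtr1a was therefore well below the receptors that led this family.

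Signalling behind relaxation and contraction was present at its main steps. Nos3, for the nitric oxide synthase of endothelium, stood at 12.3 FPKM, Nos2 at 0.215 and Nos1 at 0.0858. The receptor for nitric oxide, soluble guanylate cyclase, had its chains Gucy1b1 at 90.6 and Gucy1a1 at 72.4, a ratio of 1.25. Prkg1, for the kinase that cGMP activates, stood at 10.5 with a shared locus, and the phosphodiesterase genes Pde3a at 60.6 and Pde5a at 47.9. Adcy5 (189) was highest of the adenylate cyclase genes. In calcium handling, the calmodulin genes Calm2 (302) and Calm3 (238) stood high, and the store pump Atp2a2 (259.6) was 7.72 times Atp2a3. Itpr1 (61.6), for the store release channel, exceeded Ryr2 (6.22), Ryr3 (0.464) and Ryr1 (0.0125). The gene Cacna1c of the L-type calcium channel stood at 14.9. Of potassium channel genes, Kcnab1 (99.6), Abcc9 (85.6) and Kcnmb1 (72.6) led. Kcnmb1, for the muscle subunit of the large-conductance channel, was 4.86 times its pore gene Kcnma1 (14.9), and Abcc9 was 2.95 times its pore partner Kcnj8 (29).

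In TGF-beta and BMP signalling, 33 of 36 genes reached 1 FPKM, led by the target genes Id3 (170.4) and Id2 (106), the repressor gene Ski (113) and the receptor gene Bmpr1a (92.6). Tgfb3 (57.7) stood above Tgfb1 (28.4) and Tgfb2 (22.1), and the antagonists Grem1 (0.449) and Nog (0.42) under 1 FPKM. All 15 Notch genes reached 1 FPKM. The Notch target gene Heyl stood at 105, Hey2 at 28.3 and Hey1 at 3.97, and the receptors were ordered Notch2 (21.4), Notch3 (11.9), Notch1 (9.59) and Notch4 (5.27), with Jag1 (17.1) the highest ligand. Among the 34 genes of the Wnt list, Ctnnb1 (421), for beta-catenin, and the secreted antagonists Sfrp2 (282) and Dkk3 (279) were highest. Wnt16 (27.2) and Wnt5a (18.1) led the ligands. The secreted antagonist Sost, which is not in that list, stood above them at 575. The ligand Gas6 (321) and its receptor Axl (287) were each the highest of the 39 growth factors and the 42 receptor tyrosine kinases. Fgfr1 (128) and Pdgfrb (87.4) followed among receptors, and Grn (203), Gdf10 (112) and Cxcl12 (109) among factors. Of 7 genes for IGF-binding proteins, 6 reached 1 FPKM, from Igfbp7 (2018), Igfbp4 (366) and Igfbp5 (187) to Igfbp3 (8.15), with Igfbp1 listed at 0.

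Among transcription factors, Dbp stood highest. Of 402 symbols matched to the main families, 259 reached 1 FPKM, 146 reached 10 and 8 reached 100. Of all protein-coding genes listed, 59.6%, 33.2% and 3.62% did, so these counts do not set the families apart. Dbp (257 FPKM), Tef (163), Nr1d1 (165) and Nr1d2 (82.5) belong to the circadian clock, whose activator Arntl stood at 1.77. Dbp was thus 145 times Arntl, in tissue whose time of collection the labels do not give. Jund (193), Jun (76), Nfe2l1 (191), a regulator of proteasome genes, Thra (152), for a thyroid hormone receptor, Nfix (118), Heyl (105), Nfic (just under 100), Atf5 (92.7), Klf9 (83.6), Atf4 (79.4) and Nr1h2 (76.5) made up the rest of the 15 highest. Regulators known from smooth muscle were moderate: Srf (37.5), for serum response factor, Myocd (28.9), for its coactivator myocardin, Mef2a (71.7), Mef2d (60.6), Tead3 (57.5), Prrx1 (44), Yap1 (41.3) and Prdm6 (39.6). All 24 immediate early genes reached 1 FPKM, with Dusp1 at 89 and Egr1 at 28.7 beside Fos at 10.1 and Egr2 at 1.59.

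Hox genes, which mark position along the body axis by their order in 4 clusters, reached 1 FPKM in the lower paralogue groups. Of 26 genes in groups 1 to 9, 17 reached 1 FPKM, and of 12 genes in groups 10 to 13, 0 did. The highest of the first set was Hoxa3 at 29.1 FPKM, and of the second set Hoxa10 at 0.437, with 10 of the 12 listed at 0. Cluster A had 8 of 11 genes at 1 FPKM or more and cluster B 7 of 10. Cluster C had 1 of 9, which was Hoxc6 at 1.74, and cluster D 1 of 8, which was Hoxd8 at 1.02. After Hoxa3 the highest were Hoxa7 (12.8), Hoxa5 (7.93), Hoxb6 (6.67), Hoxa4 (5.79) and Hoxa2 (5.56). All 17 share their listed locus with another gene, so fragments may have been divided between neighbours within a cluster.

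**Figure D4:**
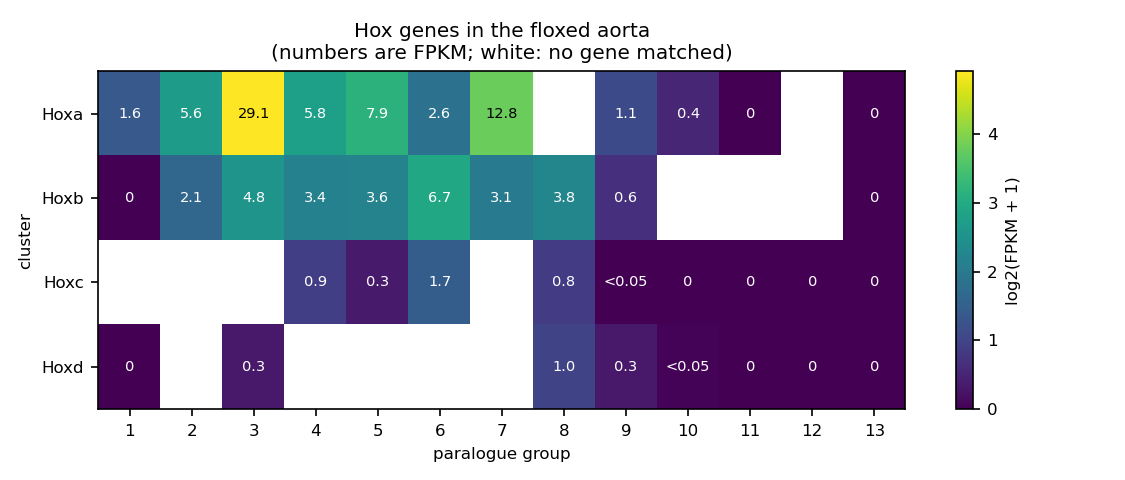
Hox genes of the floxed aorta by paralogue group (x axis) and cluster (y axis), with FPKM printed in each square and colour as log2(FPKM + 1). Squares for groups 10 to 13 stay under 1 FPKM, and the highest square is Hoxa3 at 29.1.

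Energy metabolism and protein synthesis took a large share. Of 37 mitochondrially encoded genes, 11 reached 1 FPKM, from mt-Co2 at 7506 FPKM and mt-Nd2 at 3145 to the ribosomal RNA genes mt-Rnr2 at 344 and mt-Rnr1 at 267, in libraries selected for poly-A RNA. Of 84 nuclear subunits of the respiratory chain, 82 reached 1 FPKM, with a median of 92.2, led by Atp5b (686), Cox6a1 (372) and Cox4i1 (366). Of 85 cytosolic ribosomal protein genes, 78 reached 100 FPKM, with quartiles of 297 and 475 around a median of 375. Rpl13a (1260.4) and Rplp1 (1042), which share 19.3% and 45.9% of their 75-base windows with other genes, were highest, while the copies Rpl3l (0.917) and Rpl39l (0.121) lay under 1 FPKM and Rpl10l was listed at 0. Fatty acid genes had a median of 69.3 FPKM and glycolysis genes of 57.9. This order turned without shared loci (49.6 and 75.2) and with the mean of log2(FPKM + 1) turned back to FPKM (47.9 and 56.3), and glycolysis fell to 30.5 with status OK alone. Hadhb (159), Acsl1 (92.9) and Acadl (83.6) serve the breakdown of fatty acids, and Aldoa (467), Gapdh (329) and Pkm (285) that of glucose. The glucose transporter genes Slc2a4 (36.2) and Slc2a1 (24.8) were close to each other.

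Lipid, iron and redox genes followed. Apoe (756 FPKM), for a lipoprotein that cells also secrete locally, and the receptor gene Lrp1 (357) led the cholesterol list, whose synthesis gene Sqle (8.67) was lower. The ferritin genes Fth1 (2101) and Ftl1 (391) stood above Tfrc (4.42), for the transferrin receptor, and Hamp (6.05), for hepcidin. The extracellular superoxide dismutase gene Sod3 (367) exceeded Sod1 (217) and Sod2 (21.2). Of the NADPH oxidase genes, Nox4 (157, status FAIL) was 38.3 times Cybb, and Nox1 stood at 0.591. The chaperone genes Hspa8 (653) and Hsp90ab1 (642), the collagen chaperone gene Serpinh1 (299), P4hb (289), for a disulfide isomerase, and the muscle gene Hspb7 (278) led the 31 genes of that list, 30 of which reached 1 FPKM.

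Innate immune and growth-state genes completed the survey. Of 30 genes of complement and antigen presentation, 28 reached 1 FPKM, with Clu (701), for clusterin, B2m (489), for the light chain of class I histocompatibility molecules, the inhibitor gene Serping1 (350.2) and H2-D1 (251) among the highest. The class II gene H2-Aa stood at 29.4. Of 22 chemokine genes and receptors, Cxcl12 (109), which retains leukocytes and guides vessels, was highest, and Ccl2 (1.32), Ccl5 (0.984) and Cxcl10 (0.879) were near or under the minimum. Of 26 cell cycle genes, 16 reached 1 FPKM and 8 reached 10, beside 59.6% and 33.2% of all protein-coding genes listed. Genes of dividing cells ranged from Pcna, for a replication clamp, at 41.2 to Top2a at 0.966, Birc5 at 0.637 and Mki67 at 0.321. Cdk4 (70), Ccnd3 (57.3), Ccnd2 (56.7) and the inhibitor gene Cdkn1b (36.4), are also expressed by resting cells. Among imprinted genes, Gnas (481), Meg3 (79.9) and Sgce (49) led, and Dlk1 (0.401) and Peg10 (0.868) lay under 1 FPKM. The long non-coding RNA genes Neat1 (225) and Malat1 (133) led their list.

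Length and promoter letters were set beside the rank by level. Over 12003 nuclear protein-coding genes at 1 FPKM or more, the median length of the longest coding transcript was 1776 bases in the 100 most abundant and 3298 in those ranked 8001 to 12003. A TATA box was in 15 of 74 genes of the first set with a window (20.3%) and in 274 of 3078 of the last (8.9%). For the CArG box these were 4 of 74 (5.41%) and 34 of 3078 (1.1%). The top share of CArG boxes thus rests on 4 genes, and ranks 501 to 1000 had 4%. Over all 27025 genes with a window, expressed or not, the shares were 15.7% and 1.81%. For length, GC content and promoter CpG ratio the gradient across genes was weak, and none was computed for the motifs. Spearman's rho with FPKM was -0.12 for length and 0.09 for GC content over 12003 genes, and 0.16 for the CpG ratio over 9472. Genes are not independent of each other, and FPKM itself divides by length, so these are descriptions with no test.

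**Figure D5:**
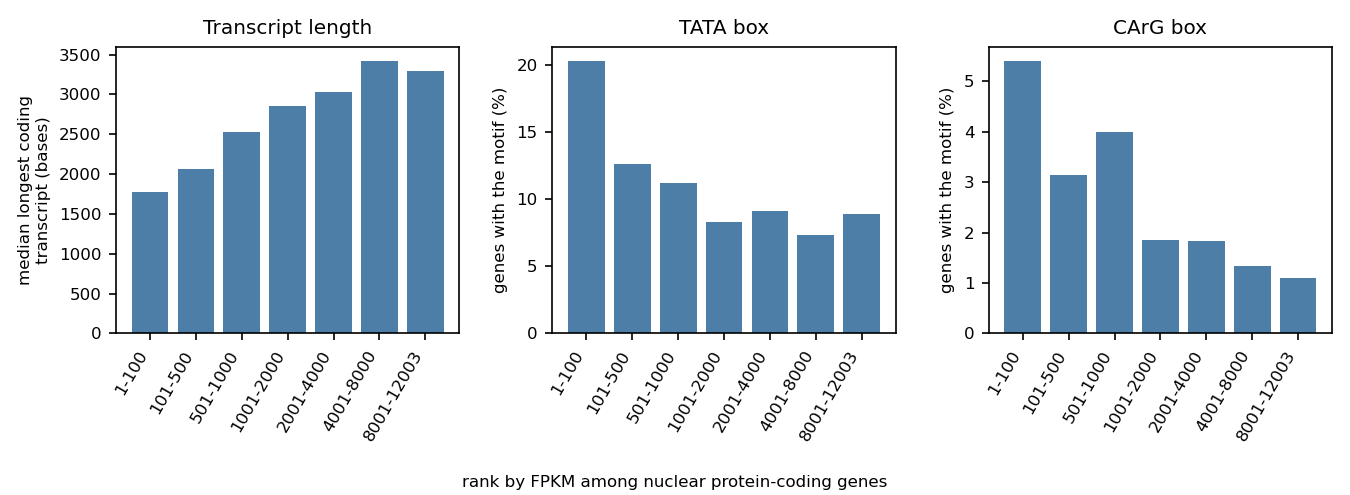
Nuclear protein-coding genes in 7 bins of rank by FPKM (x axis): the median length of the longest coding transcript in bases, and the share of genes with a promoter window that holds a TATA box or a CArG box (y axes, each from 0). The top bin, ranks 1 to 100, has the shortest transcripts (1776 bases) and the highest shares (20.3% and 5.41%, from 15 and 4 of 74 genes).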

How the data were processed

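Poly-A RNA of whole aorta was sequenced in 9 libraries, 3 per group, and the floxed group without Cre is used here. The authors used, per the submitters' processing notes, Cufflinks 1.3.0, TopHat2 2.0.8, SAMtools 0.1.7 and Bowtie2 2.1.0, with mouse build mm9. Their roles, options and gene models are not given in the sources used here. The authors deposited FPKM values per gene and group, per the file headers, with a status for each pair of groups. The floxed value was read from the pair with Sm22-Cre, and 2 expressed genes had another value in the pair with Cdh5-Cre. The 3 libraries were already combined, so there are no SD, test or depth.

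Listed genes were matched to symbols and biotypes of GENCODE M21 by Ensembl ID, and 533 expressed genes had no symbol. Loci are on mm9. The 68 lists hold 1197 written genes, of which 1179 were found, and 5 lists matched by symbol pattern. Members and lists were chosen with earlier results of these data known. The patterns for transcription factors and G protein-coupled receptors were narrowed after values were seen, to drop unrelated symbols with the same letters. A list median is over genes at 1 FPKM or more. Names were taken from Agtr1a, Cdh5 and Tagln, the 40 most abundant genes, the 8 highest of each list with defining genes under 1 FPKM, all of families of 16 or fewer, and the 15 highest transcription factors and receptors. Other genes named, such as Fbn1, Smad3 and Kdr, were picked after their values were seen. Some genes of these lists are not reported here.

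Promoters are RefSeq windows of GRCm38.p6, matched by symbol for 9676 of 13150 expressed genes with a symbol. Shared sequence was counted as 75-base windows found in transcripts of other genes. The search code was tested on simulated sequences. Python 3.11.15, pandas 2.3.3 and numpy 2.4.6 were used. Alternatives were other minimums, status OK only, no shared loci, no mitochondrial chromosome, means of log2(FPKM + 1) and log2(FPKM + 0.1), and the floxed value from the other pair, of which the last was added for the gene count and cell type markers after seeing the data.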

Additional observations from a re-analysis of the deposited data

How the results depend on the processing

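The number of genes at the minimum ranged from 9753 at 5 FPKM to 14960 at 0.5 FPKM, with 10290 for status OK alone, 12026 for protein-coding genes and 13681 with the floxed value of the other pair, beside 13683. The top 100 genes held 28.2% of the sum, 23.8% without the mitochondrial chromosome, 33% with status OK alone and 36.4% without shared loci. The number of lists with a median of 100 FPKM or more was 15 and dropped to 9 with no minimum, where genes under 1 FPKM enter the medians. It was between 11 and 17 under the other settings run. A median of 10 FPKM or more was held by 8 cell type lists, also with no minimum, with status OK alone, without shared loci and with the other pair. Under the means of log2(FPKM + 1) and log2(FPKM + 0.1), macrophage (11.3, 10.5), B cell (10.9, 10.8) and cartilage-type markers (11.6, 10.5) also reached it. The share of promoters with a CArG box or TATA box stayed within 1.5 times before the start site alone, for the smooth muscle and top 100 sets. With no minimum, 32 of 67 list medians moved by over 1.5 times, all downward. With status OK alone 11 did, all downward, among them elastic fibre (128 to 65.3) and fibrillar collagens (103 to 6.53). Without shared loci 14 of 66 did, 9 up and 5 down, among them actins (247 to 797), myosin heavy chains (97.3 to 767) and fibrillar collagens (103 to 354). Under the log means 11 (7 up, 4 down) and 14 (7 up, 7 down) of 67 did, and with the other pair 0. No paired analysis was possible because a single group is described by group values, and leaving out a replicate was not run for the same reason. The depth is unknown, so no limit for genes listed at 0 can be given.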

Other observations

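Transcripts of the pseudogenes Gm10222 and Gm13340 match mitochondrial transcripts. The pseudogene Gm10222 on chromosome 1 (mm9, 24619243 to 24619539) stood at 2139.6 FPKM, beside 2141 for mt-Nd4l, and its transcript of 294 bases is identical to mt-Nd4l over all 294 bases. The neighbouring gene with no symbol, ENSMUSG00000090378 (mm9 chromosome 1, 24620814 to 24621627), ranked 6 at 4268 FPKM, and its sequence was not aligned here. The pseudogene Gm13340 stood at 261 FPKM and matches mt-Co1, which is listed at 0 with status HIDATA, with 97.6% identity over 1545 bases. Gm13341, another unprocessed pseudogene, stood at 727 and gave no such match in the same ungapped search of the mitochondrial genes, while 23.1% of its 75-base windows occur in another gene's transcript. Of mt-Co2, 99.5% of 75-base windows also occur in another gene's transcript, of mt-Nd3 97.8%, of mt-Nd4l 98.7% and of mt-Nd4 61.5%. Over 98 of the 100 most abundant genes with a transcript of 75 bases or more, 48 shared no window, 32 shared 10% or more and 12 shared 50% or more. The translation gene Eef1a1 shared 26.6% and Actg1 33.5%.

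Some levels in the top 100 belong to genes outside the lists, picked here after their values were seen. Sost (mm9 chr11:101823772-101828329), for sclerostin, a secreted Wnt antagonist best known from bone, stood at 575 FPKM with status OK, above Col18a1 (529) and Ccn2 (532). Cpe, for carboxypeptidase E, a prohormone-processing enzyme of neuroendocrine cells, stood at 1249, and Pam, which amidates peptide hormones, at 949 with status FAIL. Dmpk, for the kinase of myotonic dystrophy, stood at 837 (status FAIL, shared locus). The long non-coding RNA genes Gm12840 and Gm10076 stood at 836 and 627. Of their sequence windows, counted as above, 29.8% for Gm12840 and 51.3% for Gm10076 also occur in another gene's transcript, so these levels are uncertain. The microRNA gene Gm26377 was listed at 600.1 FPKM with status LOWDATA, for too little or too complex data, and a locus shared with another gene, in libraries of fragments longer than a microRNA.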
